A study of Mus musculus with 35 samples.

Results

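ERV1 is the family of class I endogenous retroviruses, the gammaretrovirus-like elements of the mouse genome. The ERV1 rows of the count tables were taken as every repeat row whose family is given as ERV1, which gave 154 rows among 1395 repeat subfamilies. Of these, 31 rows whose names end in -int were taken as internal parts, and the other 123 were taken as long terminal repeat (LTR) rows. A row is a subfamily summed over all its copies in the genome.

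A full-length provirus carries the retroviral genes between a pair of LTRs. The LTR holds the promoter, so transcripts start in the left LTR, run through the internal part and end in the right LTR. Most copies in the mouse genome are solitary LTRs that were left behind by recombination between the LTRs of a provirus. In the mouse, ERV1 holds the murine leukaemia viruses, the VL30 elements, the GLN elements and MuRRS, the murine retrovirus-related sequences. Retroviral elements of several families are transcribed at the 2-cell stage, when the embryonic genome becomes active. DUX is a homeodomain factor that activates genes and LTRs of this stage, and SRF is a transcription factor that binds CArG-box elements.

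Single late 2-cell mouse embryos, F1(C57BL/6JxCBA/H) by genotype, were profiled. Zygotes were injected 24 h post-hCG, kept in KSOM medium and collected 48 h post-hCG, where hCG is the injected gonadotropin that sets the time of ovulation. Double-LOF embryos (n = 10) received both SRF-DN mRNA, which encodes a dominant-negative SRF, and the antisense oligonucleotide against DUX. DUX-LOF embryos (n = 9) received the DUX oligonucleotide, SRF-LOF embryos (n = 7) received SRF-DN mRNA, and Ctrl embryos (n = 9) received a scrambled oligonucleotide. Every group was injected. By the labels, SRF-LOF embryos got mRNA without any oligonucleotide, and a control mRNA was given to none of the groups. Each embryo gave 1 Smart-seq+5' library, in which fragments that begin at the 5' end of a transcript are told apart from fragments from inside it. The internal fragments ("internal reads") and read 2 of the 5' fragments ("5' reads") were counted separately, which made 2 count tables per embryo. The labels name no batch, litter or day, so a p-value here measures the spread between these embryos.

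The gene counts were 220921 to 2039475 in internal reads and 505157 to 2343900 in 5' reads, with the shallowest internal library, Double-LOF 6, under 0.25 of the median. In internal reads Srf had 217 to 1658 CPM (counts per 1000000 gene counts, scaled by edgeR) in Double-LOF embryos and 97.0 to 805 CPM in SRF-LOF embryos, against 11.7 to 41.2 CPM in Ctrl embryos, where the row can include the injected mRNA. Duxf3, the Dux row, had a median of 7.90 CPM in Double-LOF and 2.83 CPM in DUX-LOF embryos, against 7.96 CPM in Ctrl embryos, and the library labelled DUX-LOF 10 had 117 CPM. Dux copies may share reads, and a row count need not show the activity of an oligonucleotide. On the first principal component over 9811 genes, SRF-LOF 3 and SRF-LOF 8 scored -41.5 and -17.2, against 89.8 to 134 for the other SRF-LOF embryos and -79.6 to 97.8 for Ctrl. Double-LOF 7 also stood apart, at 103 against -105 to 26.4 for the other Double-LOF embryos, but was left out only singly. Calls of named rows that were lost without DUX-LOF 10, SRF-LOF 3 and SRF-LOF 8 together, and those gained in SRF-LOF over Ctrl, are given beside the result. All 8 late 2-cell markers were detected in every group, with summed levels of 337 to 1275 CPM in Double-LOF, 199 to 757 CPM in DUX-LOF, 1105 to 5551 CPM in SRF-LOF and 495 to 6143 CPM in Ctrl embryos. Oocyte-derived markers had median sums of 2007 CPM in Double-LOF, 1858 CPM in DUX-LOF, 3621 CPM in SRF-LOF and 2772 CPM in Ctrl embryos. Blood markers had median sums of 58.8, 81.1, 43.0 and 40.6 CPM in the same order, and 3 of the 5 were at 0 in every Ctrl embryo. The macrophage marker Cd68 had means of 34.8 ± 18.3, 51.2 ± 17.7, 20.4 ± 19.9 and 13.5 ± 13.1 CPM (SD), lowest in Ctrl. The globin gene Hba-a1 went the other way, at means of 28.2 ± 18.3, 34.9 ± 18.9, 22.8 ± 21.3 and 44.1 ± 49.5 CPM (SD), highest in Ctrl. Sperm markers summed to at most 4.90, 5.26, 11.9 and 19.7 CPM. Cumulus and granulosa markers summed to 3.80 to 236, 7.76 to 133, 2.54 to 202 and 6.80 to 236 CPM in the same order, and 3 of the 6 were at 0 in every Ctrl embryo. The part of these differences in the results below was not tested.

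The ERV1 rows drew 773 to 8212 internal counts and 1542 to 11213 5' counts per embryo, or 0.408% to 2.69% and 0.432% to 1.69% of the repeat counts. A single embryo had counts on 63 to 104 of the 154 rows in internal reads and on 61 to 108 in 5' reads. The filter on low counts left 58 rows in internal reads (46 LTR rows and 12 internal parts) and 55 rows in 5' reads (43 and 12). A total of 47 rows passed in both read classes. At 0 in all libraries were 23 rows in internal reads and 20 rows in 5' reads, 17 of them in both.

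The group means of the summed ERV1 level all lay within the range of the Ctrl embryos. In internal reads it averaged 4261 ± 975 CPM in Double-LOF embryos, 4112 ± 603 CPM in DUX-LOF embryos, 3312 ± 506 CPM in SRF-LOF embryos and 4402 ± 1341 CPM in Ctrl embryos (SD, n = 10, 9, 7 and 9). In 5' reads the same sums were 3658 ± 738, 3277 ± 633, 3749 ± 487 and 3670 ± 1128 CPM in the same order of groups. The Ctrl embryos ranged over 3037 to 6897 CPM in internal reads and 2270 to 5307 CPM in 5' reads. Of the ERV1 counts in internal reads, LTR rows took 53.6 ± 3.64% in Double-LOF, 56.3 ± 6.93% in DUX-LOF, 50.9 ± 5.46% in SRF-LOF and 55.3 ± 4.94% in Ctrl embryos. The differences between groups in these sums and shares were not tested. Since each library is a single embryo scaled to its own total, fewer cells with ERV1 RNA and less ERV1 RNA per cell cannot be told apart.

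Which rows drew the most reads depended on the read class. The files give no length for a subfamily, so the order below is of reads and not of RNA per length. In Ctrl embryos the 6 rows with the highest mean in internal reads were MER89 at 655 ± 432 CPM, MMVL30-int at 441 ± 115 CPM, RLTR1B-int at 328 ± 223 CPM, RLTR14 at 309 ± 141 CPM, RLTR14-int at 253 ± 114 CPM and MuRRS4-int at 229 ± 155 CPM (SD, n = 9). The SDs are the spread between embryos, and the order of these rows within embryos was not tested. The highest row was MER89, MMVL30-int or RLTR1B-int, depending on the Ctrl embryo. In 5' reads the 6 were MMVL30-int at 469 ± 98.3 CPM, RLTR1B at 401 ± 256 CPM, RodERV21-int at 258 ± 267 CPM, RLTR1B-int at 196 ± 117 CPM, MER34B-int at 166 ± 88.7 CPM and MERV1_LTR at 146 ± 91.3 CPM. MMVL30-int and RLTR1B-int appear in both lists. MMVL30-int is the internal part of VL30, a transcribed element that needs helper viruses to move and whose RNA responds to mitogens in cultured cells.

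**Figure D1:**
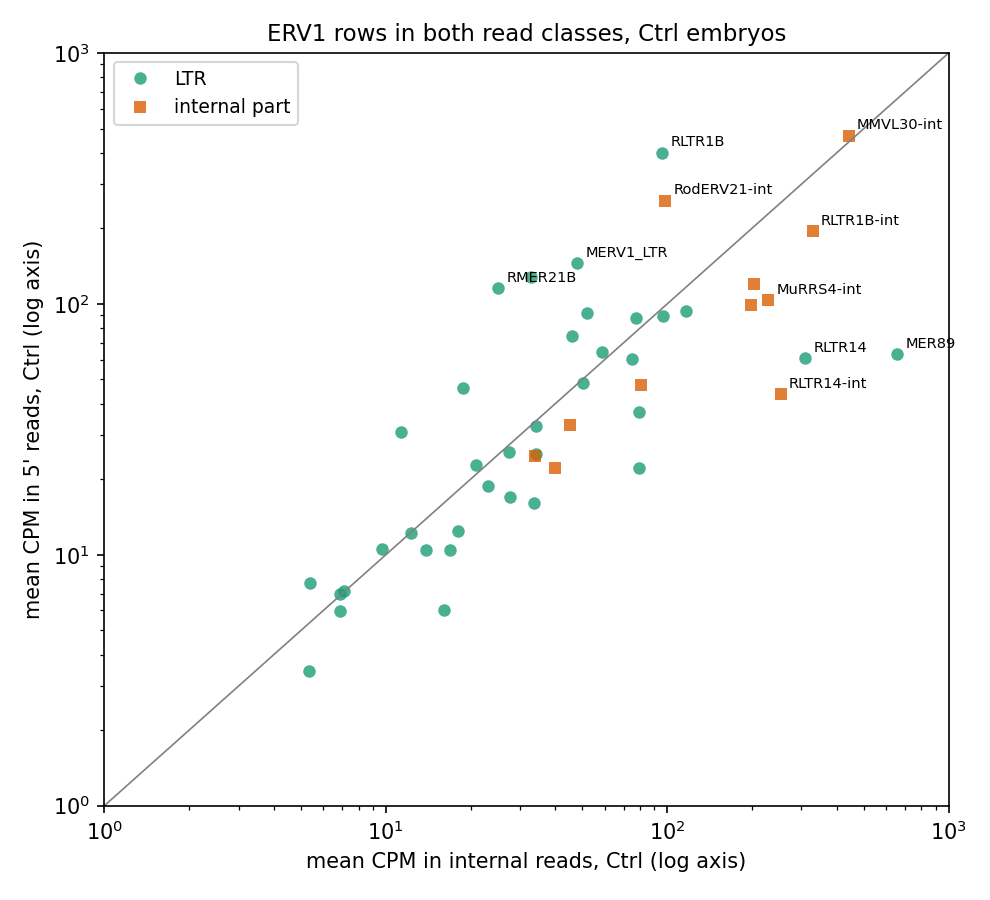
Mean level of each ERV1 row in 9 Ctrl embryos, in internal reads (x axis, CPM, log scale) and in 5' reads (y axis, CPM, log scale), for the 47 rows tested in both read classes; circles are LTR rows, squares are internal parts and the line marks equal levels. MER89 lies far below the line, at 655 CPM in internal reads and 63.2 CPM in 5' reads, and RLTR1B lies above it, at 96.1 CPM and 401 CPM.

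For each of the 47 rows, the log2 difference of 5' over internal CPM was averaged over the Ctrl embryos. It was positive for 12 of 36 LTR rows and for 2 of 11 internal parts. The median log2 difference of 5' over internal CPM was -0.16 for the LTR rows and -0.74 for the internal parts. In the other groups the medians for LTR rows were -0.14 in Double-LOF, -0.40 in DUX-LOF and 0.07 in SRF-LOF embryos. The medians for internal parts were -0.35 in Double-LOF, -0.38 in DUX-LOF and -0.49 in SRF-LOF embryos. The plot of the 2 read classes, which is of mean CPM, shows single rows far from the line of equal levels in either direction.

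Against Ctrl, changes were found in Double-LOF and DUX-LOF embryos and few or none in SRF-LOF embryos. A row was called when edgeR's quasi-likelihood test gave an adjusted p under 0.05, with Benjamini-Hochberg adjustment over all repeat rows tested. In Double-LOF embryos 8 ERV1 rows were higher and 1 lower in internal reads, and 9 were higher and 1 lower in 5' reads. Over all repeat subfamilies, 6.85% were called higher and 1.27% lower in internal reads, and 11.5% higher and 2.56% lower in 5' reads. In DUX-LOF embryos 3 rows were higher and 2 lower in each read class. Over all repeats the shares called were 2.07% higher and 2.55% lower in internal reads, and 6.55% and 3.99% in 5' reads. The share of tested ERV1 rows called was 15.5% in internal and 18.2% in 5' reads for Double-LOF, where all repeats gave 8.12% and 14.1%. For DUX-LOF it was 8.62% and 9.09%, where all repeats gave 4.62% and 10.5%. The share in 5' reads is near that of all repeats in both comparisons. With DESeq2's size factors the DUX-LOF split was 4 higher and 1 lower in internal reads and 5 higher and 2 lower in 5' reads, and with scaling to ERCC spike-ins it was 0 and 0 in internal reads and 2 and 0 in 5' reads. With ERCC scaling the Double-LOF split was 3 higher and 0 lower in internal reads and 5 and 1 in 5' reads. The comparisons with Ctrl share the same 9 Ctrl embryos, so their calls are not independent.

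The median log2 fold change over the tested ERV1 rows was 0.18 in internal and 0.15 in 5' reads for Double-LOF over Ctrl, where the medians of all repeats were 0.21 and 0.26. For DUX-LOF over Ctrl it was 0.04 and 0.03, where all repeats gave 0.12 and 0.15. For SRF-LOF over Ctrl it was -0.27 and -0.09, where all repeats gave -0.12 and -0.10. By part, 4 of 12 internal parts and 5 of 46 LTR rows were called for Double-LOF over Ctrl in internal reads, and 5 of 12 and 5 of 43 in 5' reads. The difference between internal parts and LTR rows in these counts was not tested.

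**Figure D2:**
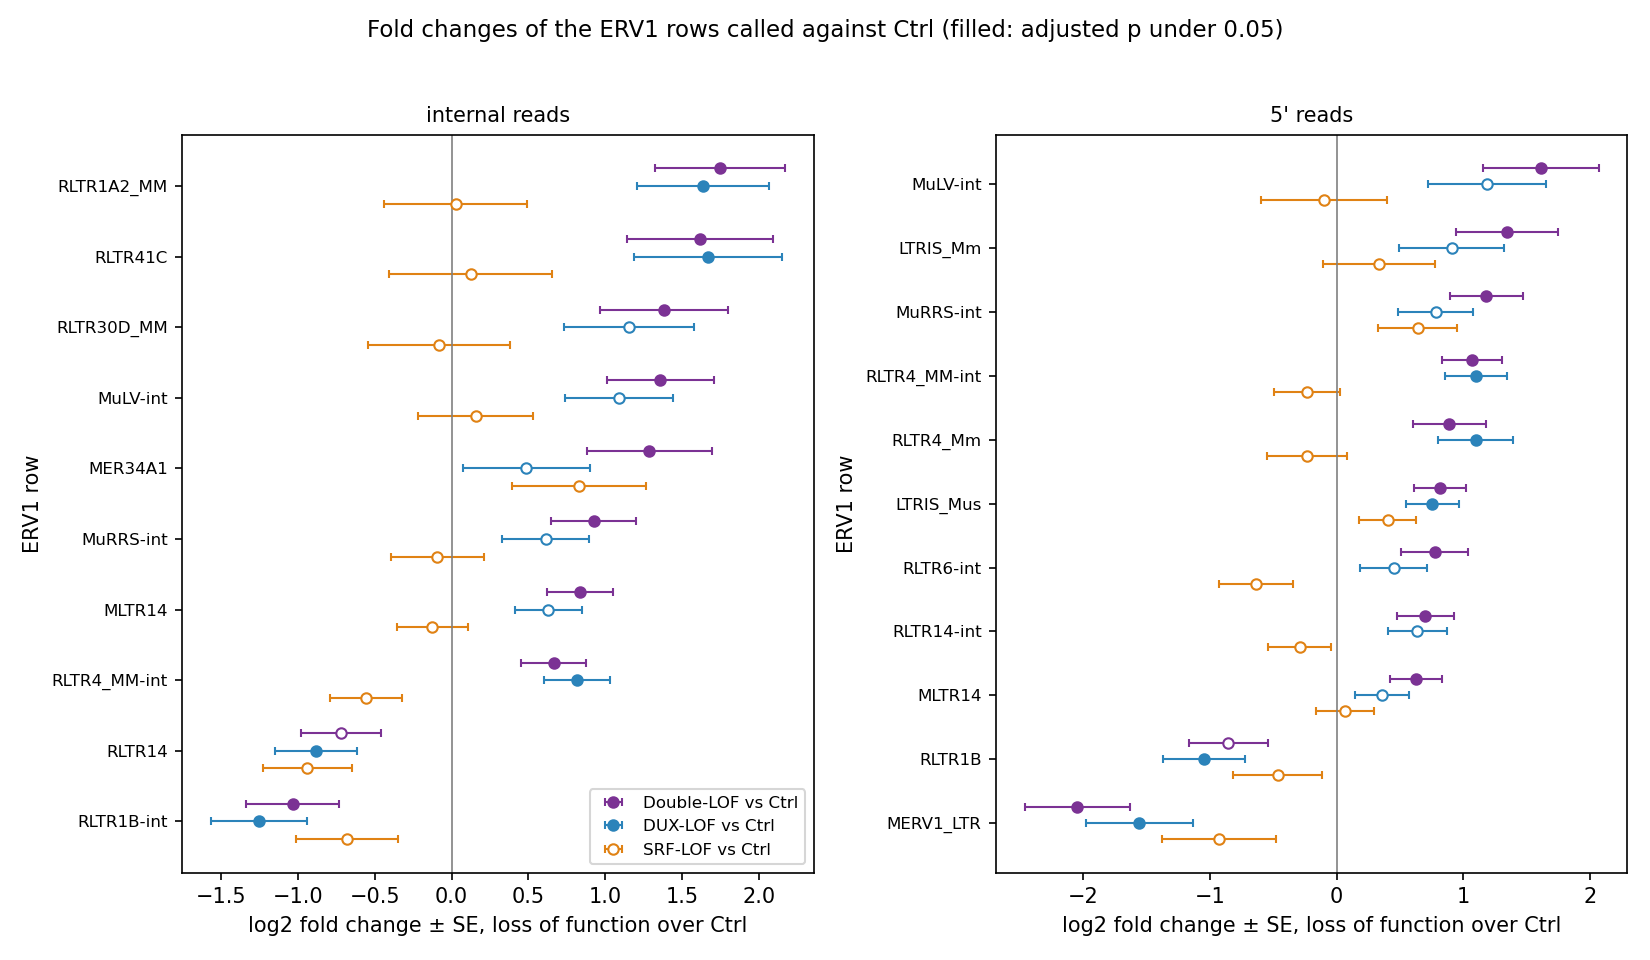
Log2 fold change over Ctrl with its SE (x axis) of each ERV1 row called in Double-LOF or DUX-LOF embryos (y axis), in internal reads on the left and 5' reads on the right; filled points have an edgeR adjusted p under 0.05. MuLV-int (1.36 and 1.62 in Double-LOF) stands high in both panels, MERV1_LTR (-2.05 in Double-LOF) is the lowest point in 5' reads, and no SRF-LOF point is filled.

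Among the rows of the murine leukaemia viruses (MLV), RLTR4_MM-int was higher in Double-LOF and DUX-LOF embryos in both read classes. MuLV-int was called in Double-LOF only, and RLTR4_Mm was called in both groups in 5' reads but in neither in internal reads. RLTR4_MM-int and MuLV-int are internal parts of MLV, and RLTR4_Mm is an LTR row paired with both. In 5' reads RLTR4_MM-int had 59.7 to 153 CPM (median 105) in Double-LOF embryos, 49.2 to 141 CPM (median 112) in DUX-LOF embryos, 26.7 to 77.6 CPM (median 35.2) in SRF-LOF embryos and 27.4 to 62.5 CPM (median 46.8) in Ctrl embryos. Above every Ctrl embryo were 9 of 10 Double-LOF and 8 of 9 DUX-LOF embryos. The log2 fold change over Ctrl was 1.07 ± 0.24 in Double-LOF (SE; edgeR adjusted p = 0.0018) and 1.10 ± 0.24 in DUX-LOF (edgeR adjusted p = 0.00368). Both calls held in each of the 35 fits that left out 1 library and under every other setting tried.

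In internal reads RLTR4_MM-int had 69.5 to 179 CPM (median 123) in Double-LOF, 90.1 to 202 CPM (median 146) in DUX-LOF, 32.2 to 68.9 CPM (median 56.0) in SRF-LOF and 50.1 to 110 CPM (median 86.1) in Ctrl embryos. Of these, 7 Double-LOF and 6 DUX-LOF embryos lay above every Ctrl embryo. The log2 fold change was 0.81 ± 0.22 in DUX-LOF (edgeR adjusted p = 0.0162) and 0.66 ± 0.21 in Double-LOF (edgeR adjusted p = 0.0438). The Double-LOF call held in 27 of the 35 fits and was lost without Ctrl 1, 3, 4, 5 or 6 or Double-LOF 1, 5 or 10. In internal reads both calls were also lost with ERCC scaling, with a replicate block (edgeR adjusted p = 0.061 in DUX-LOF and 0.0704 in Double-LOF) and without the filter on low counts, and the Double-LOF call also with TMM from gene and repeat rows and when only the compared groups were fitted.

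MuLV-int had 22.8 to 174 CPM (median 112) in Double-LOF, 65.0 to 119 CPM (median 83.3) in DUX-LOF, 21.2 to 103 CPM (median 39.4) in SRF-LOF and 11 to 80.4 CPM (median 31.1) in Ctrl embryos in internal reads. In 5' reads the ranges were 3.78 to 157 CPM (median 65.3), 22.6 to 71.8 CPM (median 53.4), 6.02 to 66.9 CPM (median 14.2) and 7.90 to 53.3 CPM (median 13.1) in the same order of groups. In each read class 7 of 10 Double-LOF embryos and 5 of 9 DUX-LOF embryos lay above every Ctrl embryo, while the lowest Double-LOF embryos lay within or below the Ctrl range. The log2 fold change in Double-LOF was 1.36 ± 0.35 in internal reads (edgeR adjusted p = 0.0166) and 1.62 ± 0.46 in 5' reads (edgeR adjusted p = 0.014). In DUX-LOF it was 1.09 ± 0.35 (edgeR adjusted p = 0.065) and 1.19 ± 0.46 (edgeR adjusted p = 0.093), which did not pass the threshold. Both Double-LOF calls held in every fit that left out 1 library and under every other setting tried.

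RLTR4_Mm was called higher in 5' reads. It had 26.5 to 64.3 CPM (median 43.7) in Double-LOF, 30.5 to 77.1 CPM (median 54.4) in DUX-LOF, 12.7 to 56.6 CPM (median 16.0) in SRF-LOF and 13.6 to 39.6 CPM (median 22.4) in Ctrl embryos. The log2 fold change was 1.10 ± 0.29 in DUX-LOF (edgeR adjusted p = 0.0116) and 0.89 ± 0.29 in Double-LOF (edgeR adjusted p = 0.0314), with 6 of 9 and 5 of 10 embryos above every Ctrl embryo. The Double-LOF call was lost without Ctrl 1, 3 or 6 or Double-LOF 4 or 5 and without the filter, and both calls were lost with ERCC scaling. In internal reads the difference over Ctrl was 0.32 ± 0.34 in Double-LOF (edgeR adjusted p = 0.586) and 1.05 ± 0.35 in DUX-LOF (edgeR adjusted p = 0.0777), neither past the threshold. RLTR6-int, which shares its name stem with the VL30 LTR row RLTR6_Mm, had a log2 fold change of 0.77 ± 0.26 in Double-LOF over Ctrl in 5' reads (edgeR adjusted p = 0.0422). That call held in 26 of the 35 fits without 1 library and was lost without the filter and when only the compared groups were fitted. Its level was 84.4 to 338 CPM in Double-LOF and 58.8 to 197 CPM in Ctrl embryos, with 4 of 10 above every Ctrl embryo. In internal reads its log2 fold change in Double-LOF was 0.69 ± 0.25 (edgeR adjusted p = 0.0776).

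**Figure D3:**
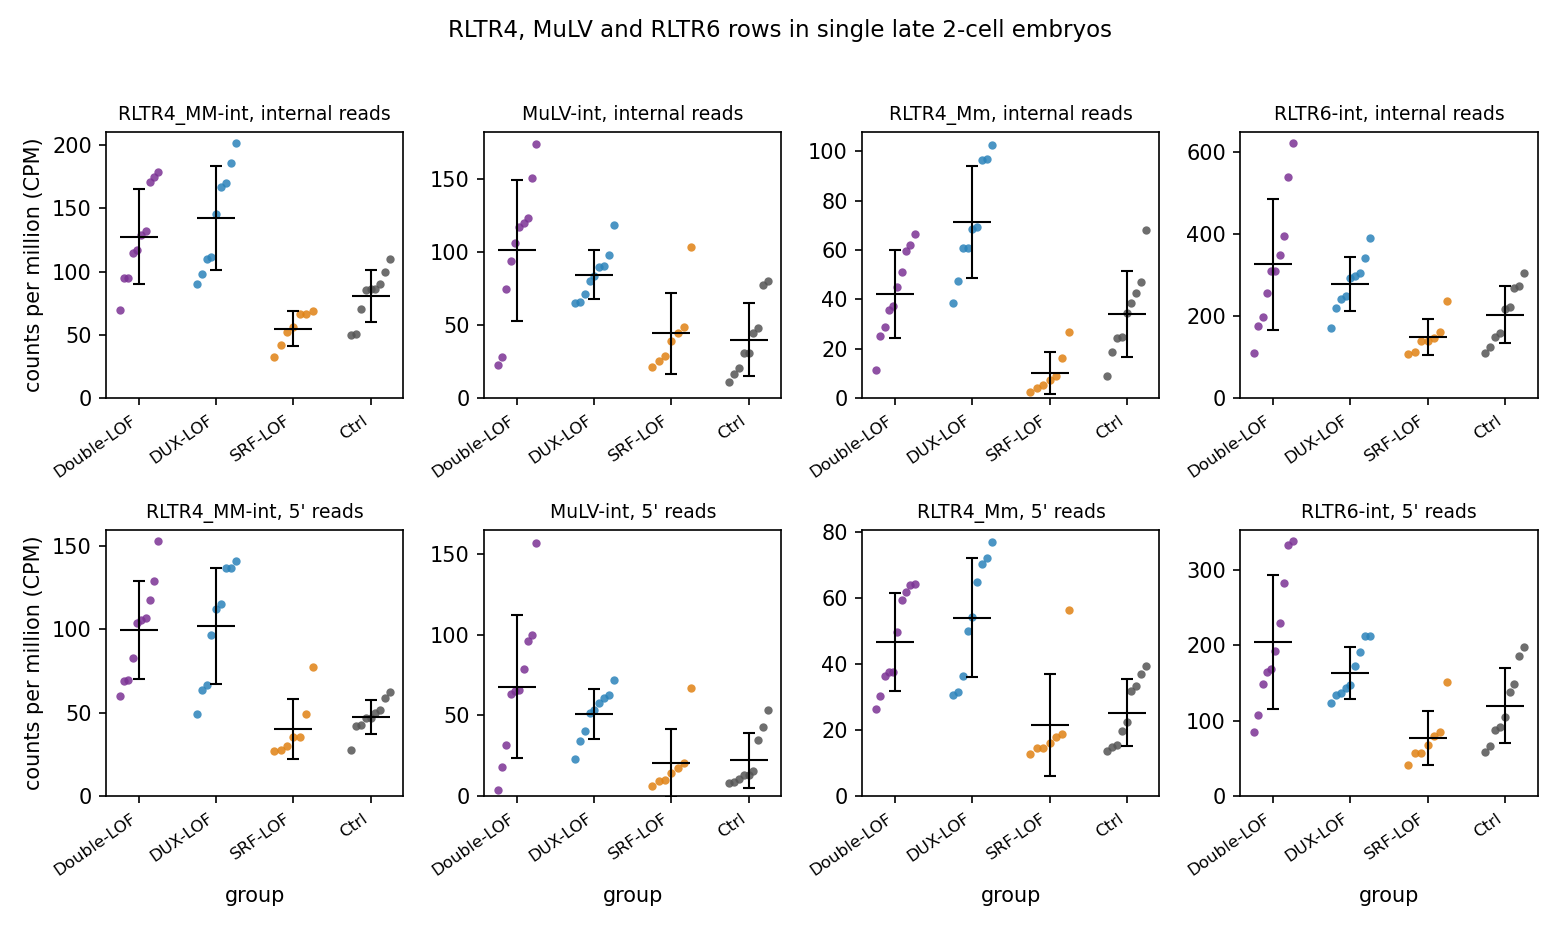
Level of RLTR4_MM-int, MuLV-int, RLTR4_Mm and RLTR6-int in each embryo (y axis, CPM) by group (x axis), internal reads above and 5' reads below; points are embryos and bars are the mean ± SD, drawn only above 0. RLTR4_MM-int in 5' reads spans 59.7 to 153 CPM in Double-LOF and 49.2 to 141 CPM in DUX-LOF, against 26.7 to 77.6 CPM in SRF-LOF and 27.4 to 62.5 CPM in Ctrl embryos.

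Of MuRRS, the murine retrovirus-related sequences, the internal part MuRRS-int was higher in Double-LOF embryos in both read classes, and of its LTRs LTRIS_Mus and LTRIS_Mm were higher in 5' reads but were not called in internal reads. MuRRS-int had 35.8 to 79.3 CPM (median 52.5) in Double-LOF and 11.9 to 38.4 CPM (median 24.0) in Ctrl embryos in 5' reads. Of the Double-LOF embryos, 9 of 10 lay above every Ctrl embryo, and the log2 fold change was 1.18 ± 0.29 (edgeR adjusted p = 0.00379). In internal reads it had 26.5 to 95.9 CPM in Double-LOF and 20.2 to 45.4 CPM in Ctrl embryos, a log2 fold change of 0.93 ± 0.28 (edgeR adjusted p = 0.0391) that was lost without Ctrl 1, 4, 5 or 6 or Double-LOF 5 or 9, with ERCC scaling, without the filter and with a replicate block (edgeR adjusted p = 0.0501). In DUX-LOF embryos, at 12.1 to 69.5 CPM in 5' reads, the log2 fold change was 0.78 ± 0.29 (edgeR adjusted p = 0.0794).

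The LTRIS rows are LTRs of the MuRRS group. LTRIS_Mus had 88.2 to 218 CPM (median 180) in Double-LOF and 113 to 241 CPM (median 147) in DUX-LOF embryos, against 56.2 to 137 CPM (median 86.6) in Ctrl embryos in 5' reads. It was called in both, at a log2 fold change of 0.82 ± 0.21 in Double-LOF (edgeR adjusted p = 0.00545) and 0.76 ± 0.21 in DUX-LOF (edgeR adjusted p = 0.0149). Neither call was lost in any of the 35 fits without 1 library, but both were lost with ERCC scaling and the DUX-LOF call without the filter and with a replicate block (edgeR adjusted p = 0.0505). LTRIS_Mm had 10.1 to 46.2 CPM (median 26.7) in Double-LOF and 4.24 to 26.9 CPM (median 5.60) in Ctrl embryos in 5' reads. Its log2 fold change was 1.35 ± 0.40 (edgeR adjusted p = 0.0211), lost without Double-LOF 5. LTRIS2 had a median of 63.1 CPM in Double-LOF and 54.7 CPM in Ctrl embryos in 5' reads, a log2 difference of 0.15 ± 0.26 (edgeR adjusted p = 0.748).

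Among the other rows, 5 LTR rows were called higher in internal reads, mostly at low levels. RLTR1A2_MM had 7.60 to 39.6 CPM (median 23.7) in Double-LOF and 8.56 to 35.1 CPM (median 23.7) in DUX-LOF embryos, against 1.11 to 14.7 CPM (median 5.31) in Ctrl embryos. Its log2 fold change was 1.75 ± 0.42 in Double-LOF (edgeR adjusted p = 0.0118) and 1.64 ± 0.43 in DUX-LOF (edgeR adjusted p = 0.0148), and neither call was lost in any fit without 1 library, though ERCC scaling gave 0.0508 in DUX-LOF (edgeR adjusted p). RLTR41C, at medians of 14.8 and 13.4 CPM against 4.94 CPM, was called in Double-LOF and DUX-LOF at 1.62 ± 0.48 and 1.67 ± 0.48 (edgeR adjusted p = 0.0391 and 0.0311). Each of the RLTR41C calls held in 30 of the 35 fits without 1 library, and both were lost with ERCC scaling, without the filter and with a replicate block. Without the 3 libraries set apart the DUX-LOF call was lost too (edgeR adjusted p = 0.0711). MLTR14 was higher in Double-LOF, at medians of 175 CPM against 85.3 CPM in Ctrl embryos in internal reads, by 0.84 ± 0.21 (edgeR adjusted p = 0.0166), with 8 of 10 embryos above every Ctrl embryo, a call lost without the filter. In 5' reads the same row rose by 0.62 ± 0.21 in Double-LOF (edgeR adjusted p = 0.0374), a call that held in 27 of the 35 fits without 1 library and was lost with ERCC scaling, without the filter and when only the compared groups were fitted. MER34A1 and RLTR30D_MM, at Double-LOF medians of 11.6 and 16.0 CPM and Ctrl medians of 5.56 and 6.68 CPM, rose by 1.29 ± 0.41 and 1.38 ± 0.42 (edgeR adjusted p = 0.0426 and 0.0391). Their calls held in 27 and 29 of the 35 fits and were lost with ERCC scaling and without the filter, and that of RLTR30D_MM also with a replicate block (edgeR adjusted p = 0.0544). An internal part, RLTR14-int, rose in Double-LOF embryos in 5' reads, at 57.2 to 89.5 CPM (median 70.3) against 25.5 to 65.7 CPM (median 36.1) in Ctrl embryos. Its log2 fold change was 0.70 ± 0.23 (edgeR adjusted p = 0.0324), and the call held in 28 of the 35 fits and was lost with ERCC scaling and without the filter.

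Rows that fell were RLTR1B with RLTR1B-int, MERV1_LTR and RLTR14. RLTR1B is an LTR row that is listed here with the GLN internal part MMERGLN-int and with its own internal row RLTR1B-int. In internal reads RLTR1B-int had 64.6 to 223 CPM (median 159) in Double-LOF, 66.0 to 233 CPM (median 128) in DUX-LOF, 115 to 343 CPM (median 198) in SRF-LOF and 97.9 to 836 CPM (median 287) in Ctrl embryos. Only 1 Double-LOF and 2 DUX-LOF embryos lay below every Ctrl embryo, so the groups overlapped. The log2 fold change was -1.25 ± 0.31 in DUX-LOF (edgeR adjusted p = 0.0128) and -1.04 ± 0.30 in Double-LOF (edgeR adjusted p = 0.0388). The Double-LOF call was lost without Ctrl 8 (edgeR adjusted p = 0.0945), while the DUX-LOF call held in each of the 35 fits. With a replicate block both calls were lost (edgeR adjusted p = 0.0501 in Double-LOF and 0.14 in DUX-LOF), and likewise with ERCC scaling. The Double-LOF call was also lost without the filter and when only the compared groups were fitted.

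In 5' reads it was the LTR row RLTR1B that was called, in DUX-LOF embryos. It had 70.5 to 378 CPM (median 234) in Double-LOF, 102 to 291 CPM (median 169) in DUX-LOF, 119 to 455 CPM (median 301) in SRF-LOF and 82.1 to 921 CPM (median 339) in Ctrl embryos. The DUX-LOF fold change was -1.05 ± 0.33 on the log2 scale (edgeR adjusted p = 0.03), and the call held in 28 of the 35 fits without 1 library. It was lost with a replicate block (edgeR adjusted p = 0.234) and with ERCC scaling. In Double-LOF it was -0.85 ± 0.32 (edgeR adjusted p = 0.0653). RLTR1B-int in 5' reads gave -0.70 ± 0.26 in DUX-LOF (edgeR adjusted p = 0.0762) and -0.48 ± 0.25 in Double-LOF (edgeR adjusted p = 0.198). The partner MMERGLN-int was not called in 5' reads, at a log2 difference of 0.19 ± 0.30 in Double-LOF (edgeR adjusted p = 0.716) and 0.06 ± 0.31 in DUX-LOF (edgeR adjusted p = 0.891).

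MERV1_LTR gave the largest negative fold change over Ctrl of the named rows in 5' reads. It had 11.3 to 54.6 CPM (median 34.9) in Double-LOF and 16.0 to 87.0 CPM (median 49.2) in DUX-LOF embryos. SRF-LOF embryos had 25 to 191 CPM (median 35.7), and Ctrl embryos had 37.2 to 279 CPM (median 159). The SRF-LOF median thus lay near that of Double-LOF, though SRF-LOF over Ctrl was not called over all libraries. Below every Ctrl embryo were 6 of 10 Double-LOF, 3 of 9 DUX-LOF and 4 of 7 SRF-LOF embryos. The log2 fold change was -2.05 ± 0.41 in Double-LOF (edgeR adjusted p = 0.000669) and -1.56 ± 0.42 in DUX-LOF (edgeR adjusted p = 0.0129), and both calls held in all 35 fits without 1 library. The DUX-LOF call was lost with a replicate block (edgeR adjusted p = 0.0501) and with ERCC scaling. In internal reads the same row differed by -0.25 ± 0.39 in Double-LOF (edgeR adjusted p = 0.722) and -1.11 ± 0.41 in DUX-LOF (edgeR adjusted p = 0.121). RLTR14 fell in internal reads in DUX-LOF embryos, at 103 to 225 CPM (median 179) against 176 to 570 CPM (median 276) in Ctrl embryos. That fold change of -0.89 ± 0.27 (edgeR adjusted p = 0.0434) held in 13 of the 35 fits without 1 library and was lost without the 3 libraries set apart, with DESeq2's size factors, without the filter, with a replicate block and with ERCC scaling.

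**Figure D4:**
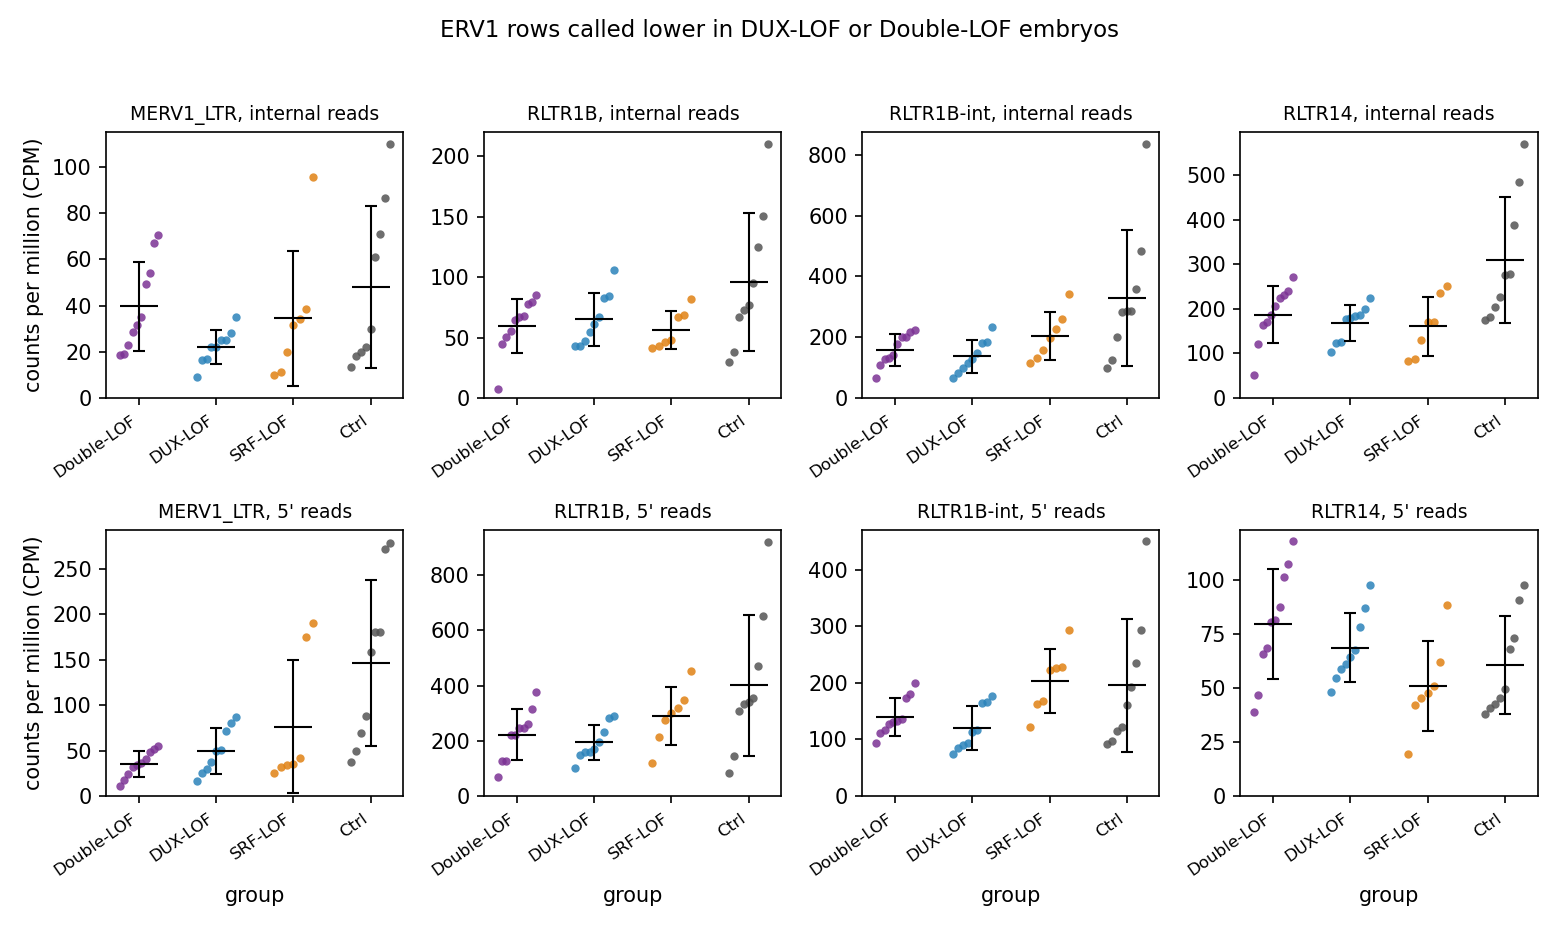
Level of MERV1_LTR, RLTR1B, RLTR1B-int and RLTR14 in each embryo (y axis, CPM) by group (x axis), internal reads above and 5' reads below; points are embryos and bars are the mean ± SD, drawn only above 0. MERV1_LTR in 5' reads reaches at most 54.6 CPM in Double-LOF and 87.0 CPM in DUX-LOF, against 279 CPM in Ctrl embryos.

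In SRF-LOF embryos no ERV1 row was called in either read class. The edgeR test gave an unadjusted p under 0.05 for 11 rows in internal reads and 12 in 5' reads, and DESeq2 called 1 and 0. Over all repeats 0% were called in internal reads and 0.16% in 5' reads. The row DESeq2 called was RLTR4_Mm in internal reads, at 2.35 to 26.7 CPM (median 7.27) in SRF-LOF and 9.06 to 67.9 CPM (median 34.5) in Ctrl embryos. Of the SRF-LOF embryos, 5 of 7 lay below every Ctrl embryo, and the edgeR log2 fold change was -1.71 ± 0.40 (edgeR adjusted p = 0.0883). Without SRF-LOF 8 the adjusted p was 0.00403, and without Ctrl 9 it was 0.0264 (edgeR).

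Leaving out SRF-LOF 3, SRF-LOF 8 and DUX-LOF 10 gave 3 rows called lower in internal reads and 2 higher and 3 lower in 5' reads. SRF-LOF 3 and SRF-LOF 8 were set apart by their own expression, at scores within the Ctrl range. Leaving them out therefore favours a difference from Ctrl, and the p-values do not allow for that choice. The rows called in internal reads were RLTR4_Mm at -2.63 ± 0.45, MER89 at -2.17 ± 0.54 and RLTR14 at -1.31 ± 0.32 on the log2 scale (edgeR adjusted p = 0.000297, 0.0165 and 0.0156). In 5' reads RodERV21-int and MER31A rose by 1.78 ± 0.52 and 1.61 ± 0.42 (edgeR adjusted p = 0.0249 and 0.017). MERV1_LTR, MLTR12 and MER89 fell by 2.11 ± 0.43, 1.86 ± 0.62 and 1.78 ± 0.44 on the log2 scale in 5' reads (edgeR adjusted p = 0.00361, 0.0451 and 0.0111). MLTR12 is named because it is 1 of these few rows and was chosen after its values were seen. RodERV21-int had 111 to 1099 CPM (median 707) in SRF-LOF and 44.1 to 824 CPM (median 133) in Ctrl embryos in 5' reads over all libraries, with 3 of 7 above every Ctrl embryo. Its log2 difference over all libraries was 1.41 ± 0.53 (edgeR adjusted p = 0.267).

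VL30 carries an internal part, MMVL30-int, and an LTR, RLTR6_Mm. MMVL30-int had 235 to 398 CPM (median 319) in SRF-LOF and 306 to 688 CPM (median 426) in Ctrl embryos in internal reads, and 3 of 7 SRF-LOF embryos lay below every Ctrl embryo. Its log2 difference was -0.46 ± 0.23 in internal reads (edgeR adjusted p = 0.478) and -0.47 ± 0.22 in 5' reads (edgeR adjusted p = 0.326). In Double-LOF and DUX-LOF embryos it differed from Ctrl by -0.21 ± 0.20 and -0.19 ± 0.21 in internal reads (edgeR adjusted p = 0.547 and 0.703). RLTR6_Mm gave -0.47 ± 0.27 in SRF-LOF over Ctrl in internal reads (edgeR adjusted p = 0.527). None of these VL30 differences passed the threshold.

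No ERV1 row differed between Double-LOF and DUX-LOF embryos in either read class by edgeR or DESeq2. The unadjusted edgeR p was under 0.05 for 5 rows in internal reads and 1 row in 5' reads, and over all repeats 0.159% and 0% were called. The interaction, which asks whether the 2 losses together differ from the sum of the single ones, also called 0 rows in both classes by both tools. The unadjusted edgeR p for it was under 0.05 for 5 and 2 rows, and 0% of all repeats were called in each class.

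Between Double-LOF and SRF-LOF embryos, which share the SRF-DN mRNA, 9 ERV1 rows were higher and 0 lower in internal reads, and 8 higher and 5 lower in 5' reads. With ERCC scaling the split in 5' reads was 16 higher and 1 lower. That scaling moved the median log2 difference of all genes to 0.42 in internal and 0.47 in 5' reads, where TMM scaling gave 0.03 and 0.05. Over all repeats 9.71% were higher and 0.796% lower in internal reads, and 17.6% and 5.27% in 5' reads. RLTR4_MM-int was called in both classes, at 1.22 ± 0.23 in internal reads and 1.31 ± 0.26 in 5' reads on the log2 scale (edgeR adjusted p = 0.00083 and 0.000386). In internal reads its lowest Double-LOF embryo, at 69.5 CPM, lay above the highest SRF-LOF embryo, at 68.9 CPM, so these groups did not overlap. RLTR4_Mm was called at 2.03 ± 0.40 and 1.12 ± 0.31 (edgeR adjusted p = 0.00126 and 0.0104), and RLTR6-int at 1.14 ± 0.27 and 1.41 ± 0.29 (edgeR adjusted p = 0.00596 and 0.000549). For these 3 rows no fit without 1 library lost the call in either class.

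MuLV-int was called at 1.20 ± 0.38 in internal reads (edgeR adjusted p = 0.0336), which held in 25 of the 35 fits without 1 library and was lost without the 3 libraries set apart, without the filter, with a replicate block and when only the compared groups were fitted. In 5' reads it was called at 1.71 ± 0.50 (edgeR adjusted p = 0.0126) in all 35. MLTR14, MuRRS-int, RLTR1A2_MM, RLTR30D_MM and RLTR14_RN were also higher in Double-LOF than in SRF-LOF embryos in internal reads, by 0.96, 1.02, 1.72, 1.46 and 1.13 on the log2 scale (edgeR adjusted p = 0.00602, 0.0252, 0.0148, 0.0337 and 0.0368). With a replicate block RLTR1A2_MM, RLTR30D_MM and RLTR14_RN were no longer called (edgeR adjusted p = 0.0746, 0.134 and 0.138). The calls of MuRRS-int, RLTR30D_MM and RLTR14_RN held in 32, 28 and 25 of the 35 fits without 1 library and were lost without the filter, and that of RLTR14_RN also when only the compared groups were fitted. In 5' reads RLTR14-int, MER89 and RLTR30D2_MM were higher by 0.99, 1.31 and 1.30 (edgeR adjusted p = 0.004, 0.0225 and 0.0459). The rows called lower in Double-LOF were RodERV21-int at -1.52 ± 0.51, MURVY-LTR at -1.38 ± 0.39, MER31A at -1.21 ± 0.40, RLTR41A2 at -1.05 ± 0.32 and RMER21B at -0.75 ± 0.27 (edgeR adjusted p = 0.0299, 0.0112, 0.027, 0.0185 and 0.0372), of which only RodERV21-int was called with ERCC scaling. With a replicate block RLTR30D2_MM, MER31A and RMER21B were no longer called (edgeR adjusted p = 0.0774, 0.114 and 0.0776), and these 3 were lost without the filter too, as was MER31A when only the compared groups were fitted. Of the 35 fits without 1 library, 24 kept RLTR30D2_MM, 24 RMER21B, 31 RodERV21-int, 33 MER31A and 33 MER89. RodERV21-int had 41.2 to 645 CPM in Double-LOF and 111 to 1099 CPM in SRF-LOF embryos. MURVY-LTR is the LTR of a virus whose copies lie on the mouse Y chromosome, and the sex of the embryos is not among the labels. It had 10.1 to 46.6 CPM (median 33.6) in Double-LOF and 41.9 to 128 CPM (median 88.1) in SRF-LOF embryos, so the groups overlapped only at 41.9 to 46.6 CPM. The 13 rows called in 5' reads include 1 that ranked last by p and is not named by the rule.

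The ratio of LTR to internal part counts was compared within each embryo, as log2 of (LTR count + 0.5) over (internal part count + 0.5). Pairs were listed from known elements or formed from rows of the same name stem, and 13 ERV1 pairs were tested in internal reads and 12 in 5' reads. The exact permutation test was two-sided, with Benjamini-Hochberg adjustment over all LTR-class pairs and 3 comparisons. In internal reads 0 of 13 ERV1 pairs were called in Double-LOF, DUX-LOF or SRF-LOF embryos, where 0%, 1.92% and 0% of all pairs were called. In 5' reads 3 of 12 were called in Double-LOF, 1 in DUX-LOF and 0 in SRF-LOF embryos, where all pairs gave 13.2%, 17% and 0%. With a pseudocount of 5 counts, 5 pairs were called in Double-LOF, the added ones being MMERGLN_LTR to MMERGLN-int and RLTR6_Mm to RLTR6-int, at differences of -0.88 and -0.77 (exact permutation test, adjusted p = 0.0458 for each).

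The RLTR1B to MMERGLN-int ratio was lower in both groups that received the DUX oligonucleotide. In 5' reads it was -0.07 to 1.51 (median 0.99) in Double-LOF, 0.20 to 2.27 (median 0.84) in DUX-LOF, 0.96 to 2.52 (median 1.75) in SRF-LOF and 1.40 to 2.39 (median 1.94) in Ctrl embryos on the log2 scale. The mean was 0.95 ± 0.46 in Double-LOF, 0.99 ± 0.60 in DUX-LOF and 1.95 ± 0.31 in Ctrl embryos (SD). The mean difference was -1.0 in Double-LOF (exact permutation test, adjusted p = 0.00215) and -0.96 in DUX-LOF (exact permutation test, adjusted p = 0.019). In internal reads the differences were -0.55 and -0.18 (exact permutation test, adjusted p = 0.347 and 0.743). The ratio of RLTR1B to its own internal row, RLTR1B-int, was not called in 5' reads in any group. Its medians were 0.80 in Double-LOF, 0.79 in DUX-LOF, 0.63 in SRF-LOF and 1.05 in Ctrl embryos.

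The MERV1_LTR to MERV1_I-int ratio in 5' reads was -1.91 to 0.36 (median -0.32) in Double-LOF and -1.19 to 1.79 (median 0.42) in DUX-LOF embryos. It was -0.75 to 2.79 (median -0.11) in SRF-LOF and -0.25 to 5.86 (median 1.64) in Ctrl embryos. MERV1_I-int had 5 to 66 counts per Ctrl embryo and 21 to 157 per Double-LOF embryo, so some ratios rest on few counts. MERV1_I-int is outside the naming rule and is named since its ratio passed. The Double-LOF difference was -2.76 (exact permutation test, adjusted p = 0.00551) and the DUX-LOF difference was -1.97 (exact permutation test, adjusted p = 0.0971). The LTRIS2 to MuRRS-int ratio was 0.23 ± 0.36 in Double-LOF and 1.20 ± 0.70 in Ctrl embryos (SD), a difference of -0.97 (exact permutation test, adjusted p = 0.0236). For MLV no ratio was called in 5' reads. The RLTR4_Mm to RLTR4_MM-int ratio differed from Ctrl by -0.12 in Double-LOF and 0.07 in DUX-LOF embryos (exact permutation test, adjusted p = 0.792 and 0.895), and the DUX-LOF difference had the other sign with a replicate block, at -0.02.

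**Figure D5:**
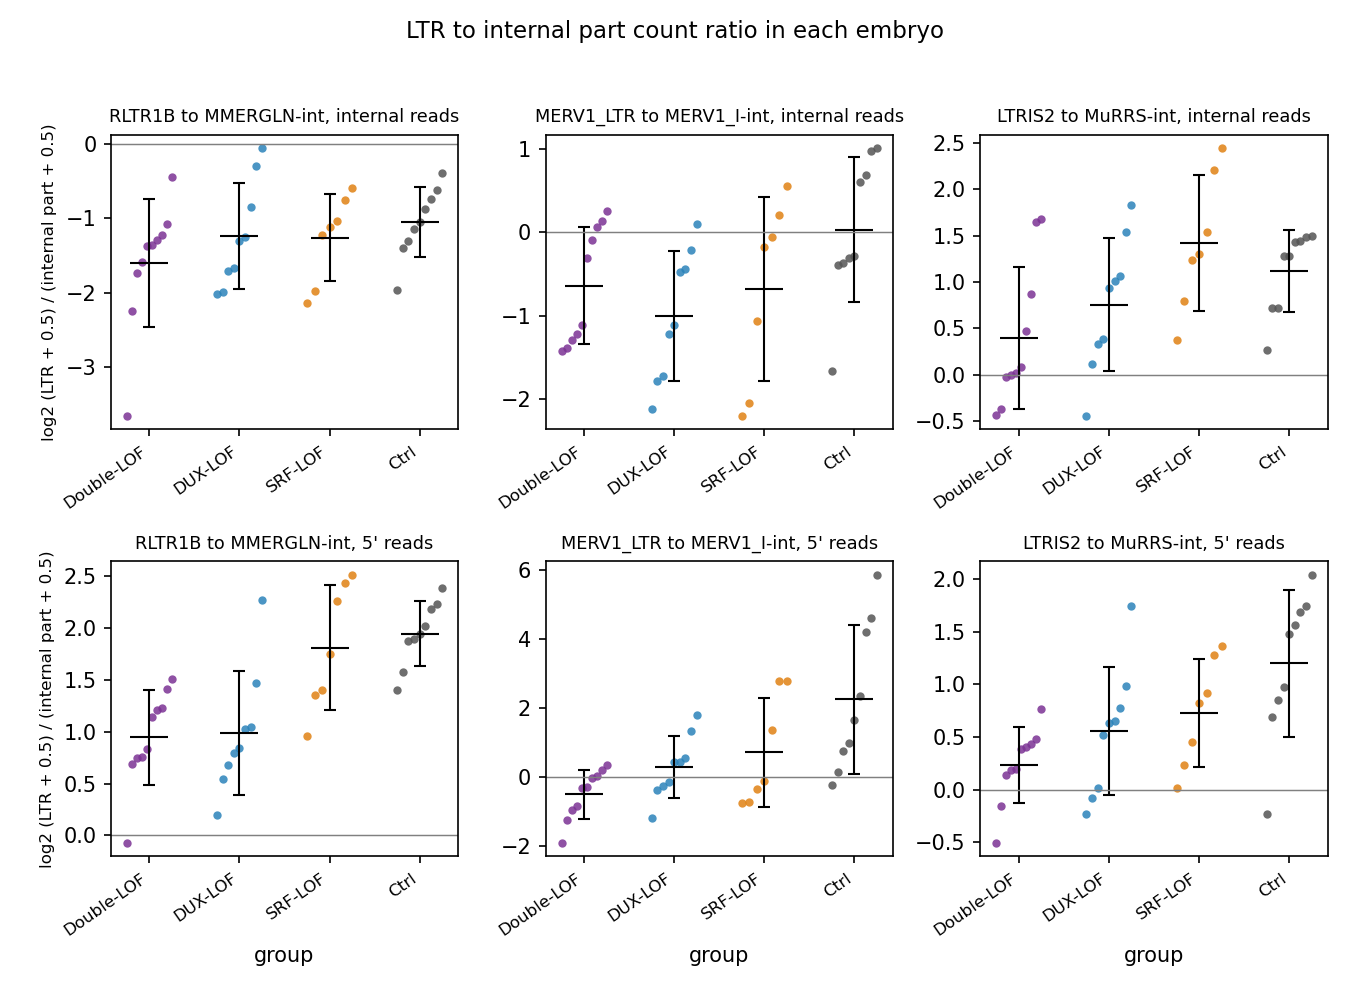
Log2 ratio of LTR to internal part counts in each embryo (y axis) by group (x axis) for the 3 ERV1 pairs called in 5' reads, internal reads above and 5' reads below; points are embryos and bars are the mean ± SD. In 5' reads the RLTR1B to MMERGLN-int ratio averages 0.95 in Double-LOF and 0.99 in DUX-LOF, against 1.95 in Ctrl embryos.

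The difference of 5' over internal log2 CPM was tested within embryos with limma for the 47 rows. In Double-LOF embryos 4 rows were called, in DUX-LOF embryos 4 and in SRF-LOF embryos 0, where 11.5%, 12% and 0.174% of all repeats were called. The unadjusted p was under 0.05 for 13 rows in SRF-LOF. RLTR14 changed in both: its mean difference was -1.19 in Double-LOF and -1.26 in DUX-LOF embryos, against -2.29 in Ctrl embryos. The change was 1.10 in Double-LOF and 1.03 in DUX-LOF (limma adjusted p = 0.0006 and 0.00253). LTRIS_Mm changed by 1.14 in Double-LOF and 1.22 in DUX-LOF (limma adjusted p = 0.0421 and 0.0365), with means of 0.99 and 1.08 against -0.14 in Ctrl embryos. MERV1_LTR changed by -1.83 in Double-LOF (limma adjusted p = 0.0405), at a mean of -0.18 against 1.64 in Ctrl embryos. The others were RLTR14-int at 0.83 in Double-LOF, and RMER21B at -0.83 and MURVY-LTR at -1.13 in DUX-LOF (limma adjusted p = 0.0244, 0.0214 and 0.0487).

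The list of host factors held 22 genes that act on gammaretroviruses: receptors, restriction factors and chromatin silencers. It was chosen with earlier results of these data known, and 20 genes were tested in internal reads. Over Ctrl, 6 rose and 1 fell in Double-LOF embryos, where 9.72% of all genes rose and 9.92% fell. In DUX-LOF embryos 4 rose and 2 fell, where 8.87% and 8.35% of all genes did. In SRF-LOF embryos 0 rose and 1 fell, where 1.16% and 0.611% of all genes did. The median log2 fold change of the list was 0.41, 0.44 and -0.17 in the same order of groups, and that of all genes was -0.08, -0.08 and -0.10.

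In 5' reads 19 of the genes were tested. Over Ctrl, 5 rose and 1 fell in Double-LOF embryos, where 11.5% and 10.2% of all genes did, and 4 rose and 1 fell in DUX-LOF embryos, where 8.72% and 9.26% did. In SRF-LOF embryos edgeR called 0 in 5' reads, with an unadjusted p under 0.05 for 6 genes, where 1.38% of all genes rose and 0.775% fell.

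In internal reads Zfp809, a KRAB zinc finger that silences MLV proviruses through their primer binding site, had 19.6 to 125 CPM (median 79.0) in Double-LOF and 13.2 to 114 CPM (median 48.2) in DUX-LOF embryos, against 38.1 to 281 CPM (median 169) in SRF-LOF and 87.0 to 389 CPM (median 205) in Ctrl embryos. It fell by 1.55 ± 0.37 in Double-LOF and by 2.11 ± 0.39 in DUX-LOF on the log2 scale (edgeR adjusted p = 0.00289 and 0.000247). In 5' reads it fell by 1.70 ± 0.41 in DUX-LOF (edgeR adjusted p = 0.00336), while the Double-LOF difference of -0.79 ± 0.38 was not called (edgeR adjusted p = 0.136). Trim28, the corepressor that KRAB zinc fingers recruit, had 211 to 433 CPM in Double-LOF, 97.8 to 286 CPM in DUX-LOF, 11.7 to 115 CPM in SRF-LOF and 7.42 to 174 CPM in Ctrl embryos. Double-LOF and Ctrl embryos did not overlap, and Trim28 rose by 1.58 ± 0.37 in Double-LOF (edgeR adjusted p = 0.00252). Its DUX-LOF difference of 0.99 ± 0.37 was not called (edgeR adjusted p = 0.0624). Zc3hav1, an antiviral factor that binds viral RNA, had 15.2 to 66.9 CPM in Double-LOF, 32.6 to 61.9 CPM in DUX-LOF, 3.39 to 8.54 CPM in SRF-LOF and 7.17 to 23.4 CPM in Ctrl embryos. It rose by 1.58 ± 0.28 in Double-LOF and 1.85 ± 0.29 in DUX-LOF (edgeR adjusted p = 0.000125 and 2.7e-05). In 5' reads it was not called in either, at 0.94 ± 0.53 in Double-LOF and 0.58 ± 0.55 in DUX-LOF (edgeR adjusted p = 0.214 and 0.5). In SRF-LOF it fell by 1.19 ± 0.33 on the log2 scale (edgeR adjusted p = 0.0489), a call lost with a replicate block (edgeR adjusted p = 0.165) and with ERCC scaling, and in 5' reads the difference of -1.34 ± 0.64 was not called (edgeR adjusted p = 0.196). Uhrf1 and Dnmt1 act in maintaining DNA methylation, and Chaf1a is a subunit of the chromatin assembly factor. They rose by 1.54 ± 0.27, 1.21 ± 0.28 and 1.18 ± 0.22 in Double-LOF embryos (edgeR adjusted p = 9.2e-05, 0.00193 and 0.000239) in internal reads, where the Dnmt1 call was lost with ERCC scaling (edgeR adjusted p = 0.0707). The same 3 rose in DUX-LOF embryos by 1.13 ± 0.27, 1.11 ± 0.28 and 1.27 ± 0.23 in internal reads (edgeR adjusted p = 0.00319, 0.00551 and 0.000157). There too the Dnmt1 call was lost with ERCC scaling (edgeR adjusted p = 0.129). All 3 and Trim28 were called higher in both Double-LOF and DUX-LOF in 5' reads. Whether the levels of these genes bear on the ERV1 rows was not tested.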

How the data were processed

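The deposited tables hold whole-number counts per gene, repeat subfamily and ERCC spike-in, made by the authors from internal fragments or from read 2 of 5' fragments, per the file headers. The 5' tables are classed under expected counts (deposited as whole numbers, so rounding changed none). STAR 2.7.11a and GRCm38 are named in the submitters' processing notes. The counting tool and its handling of multi-mapping reads and strand are not given in the sources used here. Related subfamilies can therefore share reads, and a repeat row cannot be told apart from a gene that overlaps its copies.

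The 4 groups were fitted together with edgeR 4.0.16 (R 4.3.3) by its quasi-likelihood test on gene and repeat rows, with library sizes and TMM factors from gene rows and the filterByExpr filter. Benjamini-Hochberg adjustment ran over the 628 repeat rows tested in internal and the 626 in 5' reads, and over genes for host factors. CPM are counts per 1000000 effective gene counts. The 5' minus internal difference was tested with limma 3.58.1 on log2 CPM with a prior count of 1. The LTR to internal part ratio used a two-sided exact permutation test. Alternatives were DESeq2 1.42.0, its size factors, other filters and scalings, a replicate block and leaving out libraries. The fits were tested on simulated data.

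Rows named are those past the threshold (at most 12 a comparison, by p), the 6 highest in Ctrl in each read class, and the 8 listed LTR and internal part pairs. Host factors named are up to 4 a comparison by p. The members and lists were chosen with earlier results of these data known.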

Additional observations from a re-analysis of the deposited data

Results flagged for a closer look

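Of 196 sets of ERV1 values in 1 group and read class that were checked, 18 held 1 embryo far from the rest, and chance was taken to give about 1 in 20. The sets share embryos and are not independent, so 18 is not shown to exceed chance. SRF-LOF 9 stood above its group in several rows: in internal reads MuRRS-int was at 60.1 CPM (next 33.2) and RLTR6-int at 237 CPM (next 161), and in 5' reads MuLV-int was at 66.9 CPM (next 20.2), MuRRS-int at 73.0 CPM (next 42.9) and RLTR6-int at 151 CPM (next 84.8). SRF-LOF 7 had MuLV-int at 103 CPM in internal reads (next 48.3) and RLTR4_Mm at 56.6 CPM in 5' reads (next 18.8).

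SRF-LOF 3, which scored apart from most of its group on the first principal component, had MER89 at 1050 CPM (next 460.0), RLTR14_RN at 18.8 CPM (next 10.4) and LTRIS2 at 53.8 CPM (next 77.8) in internal reads. SRF-LOF 8, also apart on that component, had LTRIS2 at 35.7 CPM in 5' reads (next 58.7). DUX-LOF 10 had MURVY-int at 20.2 CPM in internal reads (next 9.15), and DUX-LOF 4 had RMER21B at 141 CPM in 5' reads (next 87.7). Double-LOF 6, the shallowest internal library, had RLTR1B at 7.60 CPM (next 45.1), and Double-LOF 4 had MER31A at 20.3 CPM in 5' reads (next 10.9).

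Among Ctrl embryos, in internal reads MMVL30-int was at 688 CPM in Ctrl 8 (next 497), RLTR14-int at 516 CPM in Ctrl 5 (next 318) and LTRIS_Mm at 17.3 CPM in Ctrl 2 (next 11.6).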

How the results depend on the processing

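No call reversed direction under any setting run, though ratios that were not called changed sign in places. The number of ERV1 rows called moved by over 1.5 times as follows, and the cause was not tested. In internal reads, SRF-LOF over Ctrl (0 rows) gave 1 with adjustment over genes and repeats together, 1 with DESeq2 and 3 without SRF-LOF 3, SRF-LOF 8 and DUX-LOF 10. DUX-LOF over Ctrl (5) gave 8 with the joint adjustment, 9 with DESeq2, 2 without the filter, 0 with ERCC scaling and 1 with a replicate block. Double-LOF over Ctrl (9) gave 3 without the filter, 3 with ERCC scaling, 4 with the block and 5 when only these groups were fitted. Double-LOF over SRF-LOF (9) gave 16 with DESeq2, 14 with its size factors in edgeR, 18 with ERCC scaling and 5 with the block. In 5' reads, SRF-LOF over Ctrl (0) gave 5 without the 3 libraries. DUX-LOF over Ctrl (5) gave 9 with DESeq2, 2 with ERCC scaling and 3 with the block. Double-LOF over Ctrl (10) gave 6 without the filter and 6 with ERCC scaling.

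Leaving out 1 library gave 0 to 1, 3 to 6, 4 to 10 and 5 to 12 rows in internal reads for SRF-LOF, DUX-LOF and Double-LOF over Ctrl and Double-LOF over SRF-LOF. In 5' reads it gave 4 to 8, 6 to 12 and 7 to 17 for DUX-LOF and Double-LOF over Ctrl and Double-LOF over SRF-LOF. Counts moved by over 1.5 times in internal reads without Ctrl 9 or SRF-LOF 8 (SRF-LOF), Ctrl 5 or DUX-LOF 5, 7 or 10 (DUX-LOF), Ctrl 3 to 6 or Double-LOF 1 or 5 (Double-LOF), and SRF-LOF 4, 5 or 6 (Double-LOF over SRF-LOF). In 5' reads they moved without Ctrl 9 (DUX-LOF), Ctrl 1, 3 or 6 or Double-LOF 5 (Double-LOF), and SRF-LOF 4 or 6 (Double-LOF over SRF-LOF). Of the values of single rows, 2030 kept their call and 258 lost it.

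The replicate numbers showed little sign of pairing the embryos, but pairing is not excluded. Over 41 pairs of libraries with the same number, deviations from the group means correlated at a median r of 0.037 in internal and 0.046 in 5' reads, and 16 and 17 pairs were over 0.1. These r ran from -0.59 to 0.59 and from -0.59 to 0.57. Pairs with unlike numbers had medians of 0.0087 and 0.0007. With the block, Double-LOF over Ctrl gave 10 calls in 5' reads, the ratios gave 4, the read-class difference gave 7 where the fit without it gave 8, and host factors in internal reads gave 14 in both fits, with Zc3hav1 in SRF-LOF among the calls lost. With a pseudocount of 5 the ratios gave 6 calls in 5' reads, and with a prior count of 5 the read-class difference gave 10. ERCC scaling set the median log2 fold change of all genes in SRF-LOF over Ctrl at -0.46 in internal and -0.39 in 5' reads. Low counts limit rows near the filter, and a row not called is not shown to be unchanged.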
